A study of Mus musculus with 28 samples.

Results

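Interferons are signalling proteins released when a cell senses foreign or misplaced nucleic acid. Type I and type III interferons act through their receptors, the kinases JAK1 and TYK2 and a transcription factor complex that holds STAT2 and IRF9, which binds interferon-stimulated response elements and switches on a large set of antiviral genes. Epithelial cells, those of the mammary gland included, carry the receptors and keep a basal level of many of these genes without infection.

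The interferon response genes described here were a list of 36 such genes, given by symbol; the rule that picked them used no threshold on the values. A member was measured where the array's annotation gave at least 1 probe set to that symbol alone, and where several qualified, the brightest by average over the 28 arrays stood for the gene. This gave 32 members with 44 probe sets, out of 17097 genes. Isg15, Bst2, Ifi44 and Oas1a were not analysed here. Their roles run from transcription factors (Irf1, Irf7, Irf9, Stat2) through sensors of viral nucleic acid and the proteins around them (Ifih1, Dhx58, Zbp1, Trim25, Eif2ak2) to effectors. The effectors are the oligoadenylate synthetase-like genes Oasl1 and Oasl2, the IFIT genes Ifit1, Ifit2 and Ifit3, the ISG15 pathway genes Usp18 and Herc6, and the GTPases Mx1, Mx2, Gbp2 and Gbp3. They also include the enzymes Rsad2, Cmpk2 and Isg20, the membrane-associated proteins Ifitm3 and Rtp4, the ADP-ribosyltransferase family members Parp9 and Parp14, and Ifi35, Ifi27, Xaf1, Samd9l and Lgals3bp.

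RNA came from mammary cells sorted by flow cytometry from female mice given 3 doses of 5 mg tamoxifen starting at 4 to 5 weeks of age, and was read on Affymetrix arrays. All mice carried RosaYFP, a fluorescent reporter switched on by Cre, and an inducible Cre under a keratin promoter, K5CREERT2 (basal cells) or K8CREERT2 (luminal cells). The tumour groups were K5PIK TU (K5CREERT2 with PIK3CA-H1047R, 3 arrays), K8PIKp53 TU (K8CREERT2 with PIK3CA-H1047R and p53flox/flox, 2 arrays) and K8PIK TU (K8CREERT2 with PIK3CA-H1047R, 7 arrays). PIK3CA-H1047R is an activated mutant of the catalytic subunit of PI3-kinase. The sorted non-tumour groups had 2 arrays each and held YFP-positive cells of a luminal or a basal gate. Those with PIK3CA-H1047R were Luminal-K5PIK-10m and Basal-K5PIK-10m (K5CREERT2, 10 months after tamoxifen) and Basal-K8PIK-8w and Luminal-K8PIK-8w (K8CREERT2, 8 weeks after it). Those without it were Basal-K5YFP-10m and Basal-K5YFP-8w (K5CREERT2) and Luminal-K8YFP-10m and Luminal-K8YFP-8w (K8CREERT2). In the cells without the oncogene the gate and the Cre driver changed together and cannot be told apart, whereas the gates of K8PIK and of K5PIK cells each came from 1 genotype. The labels do not say whether replicates came from separate mice, so p-values measure the spread between these samples, which may be technical. Lower expression in a bulk sample can come from fewer cells of a type or from less RNA per cell, which cannot be told apart here.

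Values are deposited log2 signals, in which 1 unit is a 2-fold difference. The 40th percentile of each array, 3.89 to 3.99, served as the floor of detection. Of the 32 members, 24 lay above it on every array. Ifit2, Mx2 and Gbp3 were too dim to be tested among the sorted cells, which left 29 members there, and all 32 were tested where tumours took part. Usp18 was above the floor on 15 arrays, on 2 of 4 luminal and 0 of 4 basal arrays without the oncogene, so its low values are near that floor. Among sorted cells it was above the floor on 4 arrays, those of Luminal-K8YFP-8w and Luminal-K8PIK-8w, and was tested only because of them. The gates matched their labels: the mean of 7 basal markers was 10.5 to 11.1 on basal-gate arrays and 6.13 to 8.15 on luminal-gate arrays.

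Sequence around a RefSeq start was available for 23 of the members, as windows of build GRCm38.p6. They run from 250 bases before to 50 bases after that start, which can lie inside the annotated gene. The core of the interferon-stimulated response element was searched on both strands as GAAA, any 2 bases, and GAAA again. It was present for 9 of the 23 members (39.1%), against 3.99% of the 27025 genes with a window. These are matches of letters, not measured binding. The 250 bases before the window's start are shown for Rsad2, Cmpk2 and Ifit1. Rsad2 and Cmpk2 were chosen as neighbours on chromosome 12 whose expression differed, and Ifit1 for its pair of matches. Any link of the motif to that difference was not tested. The annotated gene start of Cmpk2, 26469117, lies within its stretch, so the end of that stretch is gene sequence. Capitals mark the motif or its reverse complement.
Rsad2, chr12:26456453-26456702, minus strand: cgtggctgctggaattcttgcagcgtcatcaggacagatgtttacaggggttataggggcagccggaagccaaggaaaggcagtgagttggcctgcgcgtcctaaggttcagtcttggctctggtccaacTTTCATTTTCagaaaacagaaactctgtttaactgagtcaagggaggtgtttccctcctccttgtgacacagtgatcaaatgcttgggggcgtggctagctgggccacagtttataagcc
Cmpk2, chr12:26468965-26469214, plus strand: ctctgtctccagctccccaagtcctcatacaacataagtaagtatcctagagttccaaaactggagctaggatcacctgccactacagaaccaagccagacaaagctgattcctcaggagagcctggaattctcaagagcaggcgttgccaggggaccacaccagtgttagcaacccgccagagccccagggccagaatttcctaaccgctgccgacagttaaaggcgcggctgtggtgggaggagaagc
Ifit1, chr19:34640639-34640888, plus strand: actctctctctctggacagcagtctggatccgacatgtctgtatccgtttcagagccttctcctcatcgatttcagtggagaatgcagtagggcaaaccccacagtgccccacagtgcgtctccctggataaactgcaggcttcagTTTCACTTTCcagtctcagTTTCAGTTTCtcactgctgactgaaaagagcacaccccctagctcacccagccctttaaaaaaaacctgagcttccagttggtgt

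All matches of 5 further members that the results below describe are shown with the bases around them. Each of these genes was called between gates or between tumours and normal cells, Gbp3 only by a call that carries no weight. The matches of Gbp2 and of Eif2ak2, which was called in K5PIK TU, are not shown. Stat2, Gbp3 and Ifit3 have theirs before the window's start, and Ifih1 and Ifitm3 have theirs after it. The matches of Ifit3 nevertheless lie after its annotated gene start, 34583119, and so inside the annotated gene. Ifitm3, Ifit3 and Gbp3 hold 2 matches each, those of Gbp3 overlapping, and each line has the capitals of 1 match.
Ifih1, chr2:62646206-62646233, minus strand: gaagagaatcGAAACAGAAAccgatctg
Ifitm3, chr7:141010706-141010735, minus strand: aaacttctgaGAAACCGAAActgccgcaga
Ifitm3, chr7:141010723-141010752, minus strand: caaaattcagGAAAAGGAAActtctgagaa
Ifit3, chr19:34583363-34583392, plus strand: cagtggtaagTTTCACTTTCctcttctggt
Ifit3, chr19:34583397-34583426, plus strand: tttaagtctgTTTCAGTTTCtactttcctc
Gbp3, chr3:142559989-142560018, plus strand: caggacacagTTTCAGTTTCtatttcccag
Gbp3, chr3:142559995-142560024, plus strand: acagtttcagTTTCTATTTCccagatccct
Stat2, chr10:128270266-128270295, plus strand: cgcaccctggTTTCAGTTTCctttccctag

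Across the 11 groups the members were mostly highest in tumours and lowest in basal-gate cells. Tumour groups held the highest group mean for 23 of the 32 members, against 33.7% of all genes, and K8PIK TU alone for 13, against 2.42% of all genes. Basal-gate groups held the lowest mean for 21 members, against 46.5% of all genes, and Basal-K5PIK-10m for 12 of them, against 10.4% of all genes. In a moderated F test over all groups 19 of 32 members differed, beside 56.4% of all genes, so the share that varied was near the background. Rsad2, an enzyme that makes a chain-terminating nucleotide, had the widest range of group means, 3.65 log2 units, followed by Rtp4, a chaperone for receptors, at 3.02. Cmpk2, a mitochondrial nucleotide kinase and the neighbour of Rsad2, ranged over 0.77 and did not pass the F test (adjusted p = 0.154).

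**Figure D1:**
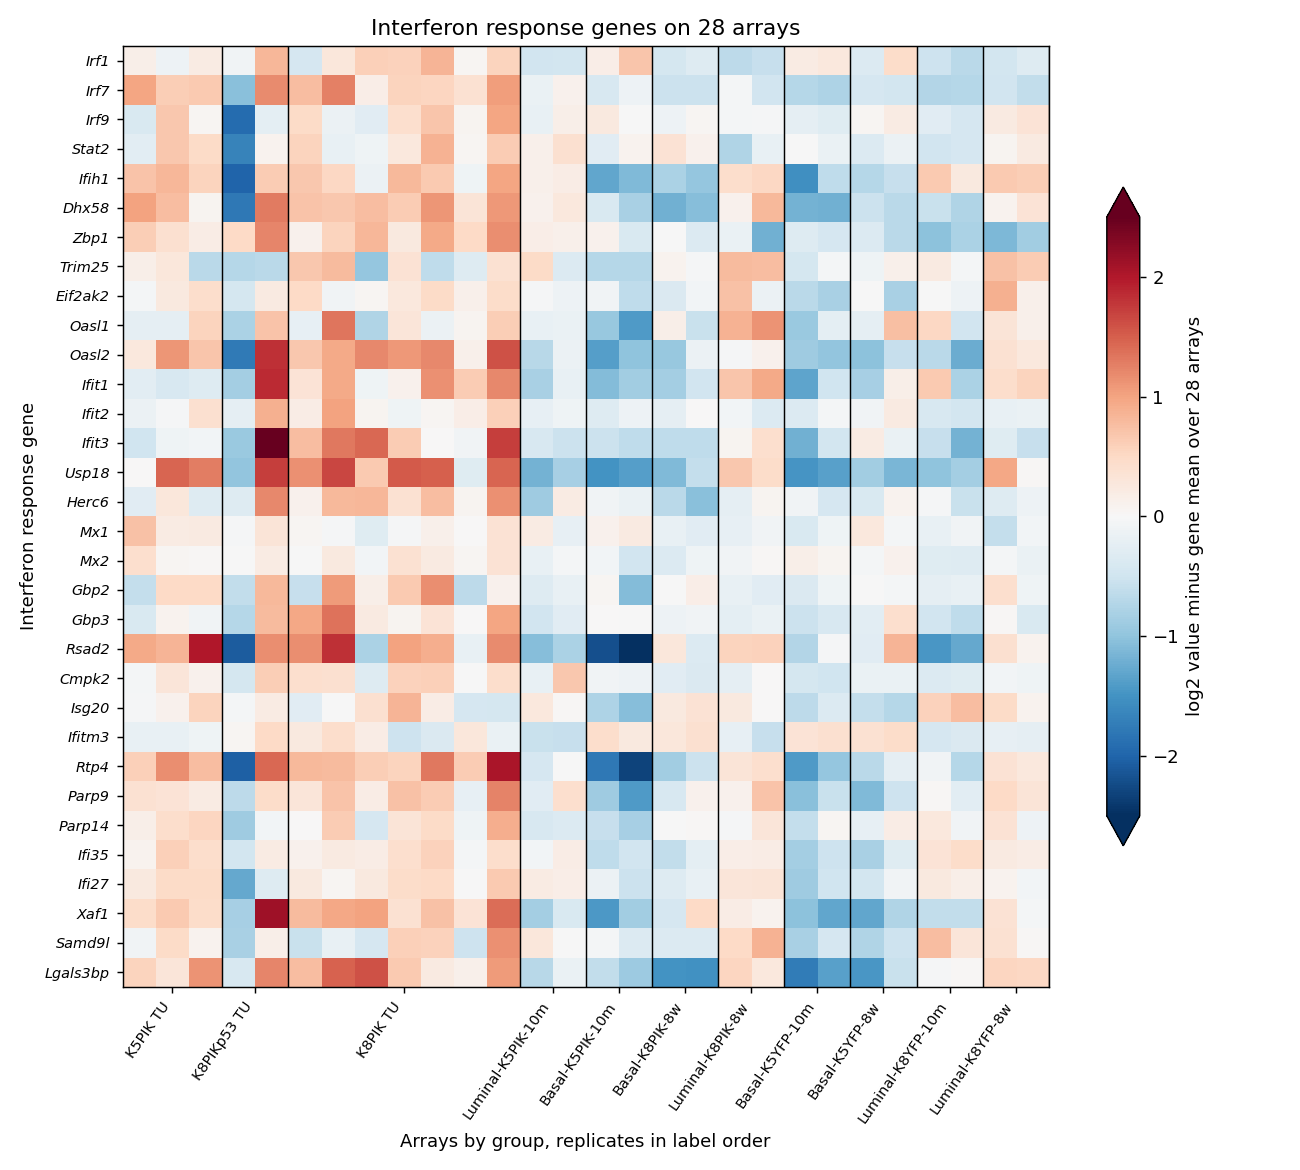
Log2 value of each of the 32 measured members (rows, by role) on each of the 28 arrays (columns, by group), minus the gene's own mean over all arrays, with red above and blue below that mean. Most rows are red on the K8PIK TU and K5PIK TU arrays, and the first K8PIKp53 TU array is blue for most members while the second is red.

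The mean over the members, a description of each array, lay between 6.60 and 6.84 in K5PIK TU and between 6.48 and 7.30 in K8PIK TU. It lay between 6.17 and 6.35 in Luminal-K5PIK-10m, 5.78 and 5.91 in Basal-K5PIK-10m, 6.07 and 6.16 in Basal-K8PIK-8w and 6.57 and 6.60 in Luminal-K8PIK-8w. The cells without the oncogene had 5.76 and 5.99 in Basal-K5YFP-10m, 6.03 and 6.29 in Basal-K5YFP-8w, 6.06 and 6.25 in Luminal-K8YFP-10m and 6.47 and 6.61 in Luminal-K8YFP-8w. The K8PIKp53 TU arrays were the exception among tumours, at 5.62 and 7.24, the first being the lowest of all 28 arrays.

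**Figure D2:**
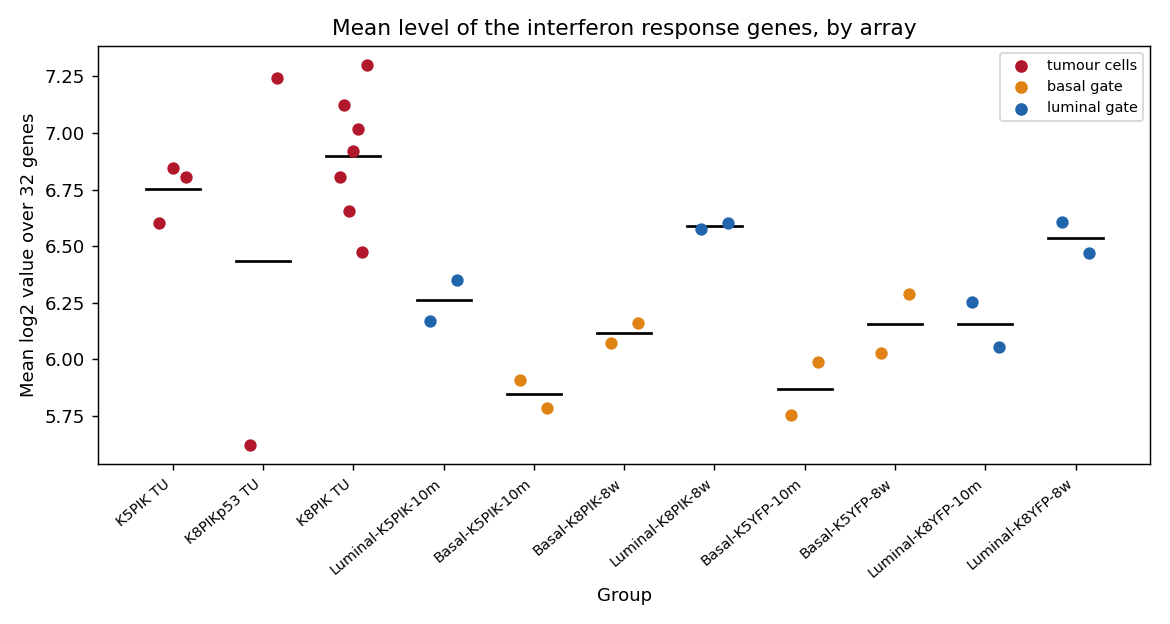
Mean log2 value over the 32 members (vertical axis) on each array, by group (horizontal axis), where points are arrays, black bars are group means and colours give tumour cells, basal gate or luminal gate. All 4 basal-gate groups lie at or below 6.29, as do both Luminal-K8YFP-10m arrays and the lower Luminal-K5PIK-10m array. The pair of K8PIKp53 TU arrays spans 5.62 to 7.24.

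Beside all genes, a larger share of members was lower in basal-gate than in luminal-gate cells, except in the 10-month pair without the oncogene. Ifitm3 was higher in the basal gate in all 4 pairs, Irf1 in 2, and Rsad2 and Stat2 in 1 each. In Basal-K5YFP-8w against Luminal-K8YFP-8w, 12 of 29 members were lower and 1 was higher (limma, adjusted p under 0.05), where 19.9% of all genes were lower and 10.4% higher. Members' median difference was -0.39, against -0.09 for all genes. In Basal-K5YFP-10m against Luminal-K8YFP-10m, 7 members were lower and 3 higher, beside 25.8% and 17.6% of all genes, a share near the background. In Basal-K8PIK-8w against Luminal-K8PIK-8w, 10 members were lower and 2 higher, beside 10.6% and 8.9% of all genes. In Luminal-K5PIK-10m against Basal-K5PIK-10m, 8 members were higher and 2 lower, beside 10.4% and 13.2% of all genes. The first 2 of these pairs share no arrays with the last 2. Usp18 is among the lower members of the 8-week pair without the oncogene and of the K8PIK pair. Since it was tested only through the luminal arrays of these pairs, it carries no weight in either count.

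The counts depended on the arrays in the fit. With all 28 arrays, tumours included, they were 4 for the 8-week pair without the oncogene, 6 for the 10-month pair, 1 for the K8PIK pair and 3 for the K5PIK pair. The 13 calls of the 8-week pair without the oncogene became 8 without Basal-K5YFP-8w replicate 1 and 5 without Luminal-K8YFP-8w replicate 1. The 12 calls of the K8PIK pair became 6 without Basal-K8PIK-8w replicate 1 and 5 without Luminal-K8PIK-8w replicate 2, and the 10 calls of the K5PIK pair became 4 without Basal-K5PIK-10m replicate 2.

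Of the 5 sensing members, 3 passed in at least 1 pair of gates. Ifih1, which encodes the sensor of long double-stranded RNA MDA5, had 5.69 and 5.83 in Basal-K5YFP-8w against 7.05 and 7.01 in Luminal-K8YFP-8w, and 5.61 and 5.44 in Basal-K8PIK-8w against 6.84 and 6.92 in Luminal-K8PIK-8w. Every basal-gate array lay below every luminal-gate array, and Ifih1 passed the test in all 4 pairs. Its differences were -1.27 (SE 0.24, adjusted p = 0.00238), -1.54 (SE 0.24, adjusted p = 0.000395) and -1.36 (SE 0.24, adjusted p = 0.00209) for basal over luminal cells and 1.35 (SE 0.24, adjusted p = 0.00149) for Luminal-K5PIK-10m over Basal-K5PIK-10m. Dhx58, the related regulator LGP2, was lower in the basal gate in 3 pairs, most in Basal-K8PIK-8w (4.12 and 4.27) against Luminal-K8PIK-8w (5.43 and 6.13), a difference of -1.59 (adjusted p = 0.000427). Its dimmest probe set, below the floor on all arrays, showed -0.02 there. Trim25, a ubiquitin ligase that activates the sensor RIG-I, was lower in 3 pairs by 0.67 to 0.78 log2 units. Zbp1, a sensor of Z-form nucleic acid, and Eif2ak2, the kinase PKR, passed in none of the 4.

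Among effectors, Rtp4 was lower in the basal gate in all 4 pairs, but its call was lost in 7 of 10 alternatives for Basal-K5YFP-8w, 4 of 10 for Basal-K5YFP-10m, 3 of 10 for Basal-K8PIK-8w and 1 of 10 for Luminal-K5PIK-10m. It had 7.27 and 7.68 in Luminal-K5PIK-10m against 5.91 and 5.37 in Basal-K5PIK-10m, a difference of 1.83 (SE 0.27, adjusted p = 0.000279). A second, dimmer Rtp4 probe set gave 0.76 for that pair but 0.05 for Basal-K5YFP-8w over Luminal-K8YFP-8w, where the chosen one gave -0.76. Lgals3bp, a secreted glycoprotein, had 6.49 and 6.47 in Basal-K8PIK-8w against 8.52 and 8.26 in Luminal-K8PIK-8w, the largest gap of any member in that pair (-1.91, SE 0.27, adjusted p = 0.000436). It was lower in the basal gate by 1.53 at 8 weeks and 1.54 at 10 months in cells without the oncogene, but between the K5PIK gates its difference of 0.34 did not pass. Isg20, an exonuclease, had 8.75 and 8.52 in Luminal-K5PIK-10m against 7.72 and 7.43 in Basal-K5PIK-10m and passed in both pairs without the oncogene too. In Basal-K8PIK-8w it had 8.74 and 8.86, against 8.75 and 8.51 in Luminal-K8PIK-8w, and these arrays overlapped.

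Some effectors were lower in the basal gate at 8 weeks only by the test, and the change of the gap with age did not pass for any member. Usp18, the protease that removes ISG15 and damps receptor signalling, had 3.48 and 3.20 in Basal-K5YFP-8w against 5.32 and 4.37 in Luminal-K8YFP-8w (-1.50, adjusted p = 0.00168). It was tested only through luminal arrays where it is high. At 10 months it had 2.87 and 2.99 in Basal-K5YFP-10m against 3.33 and 3.49 in Luminal-K8YFP-10m, all below the floor. Ifit1, which binds viral RNA ends, and Ifit3 passed only in the K8PIK pair, at -1.48 (adjusted p = 0.0308) and -0.88 (adjusted p = 0.0325). In the 8-week pair without the oncogene Ifit3 went the other way without passing. It ran from 5.64 to 6.02 in Basal-K5YFP-8w and from 5.23 to 5.52 in Luminal-K8YFP-8w.

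Ifitm3, a membrane protein that blocks viral fusion, went the other way in every pair. It had 11.62 and 11.71 in Basal-K5YFP-8w against 11.03 and 11.03 in Luminal-K8YFP-8w, and 10.69 and 10.67 in Luminal-K5PIK-10m against 11.68 and 11.49 in Basal-K5PIK-10m. No arrays of the gates overlapped, and the differences were 0.63, 0.76 and 0.73 for basal over luminal cells and -0.91 (adjusted p = 0.00107) for Luminal-K5PIK-10m over Basal-K5PIK-10m. Irf1, a factor also induced by type II interferon, was higher in the basal gate in the 10-month pairs, by 0.83 (adjusted p = 0.0128) in cells without the oncogene, and lower in Luminal-K5PIK-10m by 0.90 than in Basal-K5PIK-10m (adjusted p = 0.0146). Rsad2 changed direction between the 10-month pairs. It was higher in Basal-K5YFP-10m than in Luminal-K8YFP-10m by 0.99 (adjusted p = 0.0336), where its other probe sets gave 0.59 and 0.48. In Luminal-K5PIK-10m it was higher than in Basal-K5PIK-10m by 1.45 (adjusted p = 0.00801), where those gave 0.36 and 0.09. Stat2 was higher in Basal-K8PIK-8w than in Luminal-K8PIK-8w by 0.70 (adjusted p = 0.0336).

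**Figure D3:**
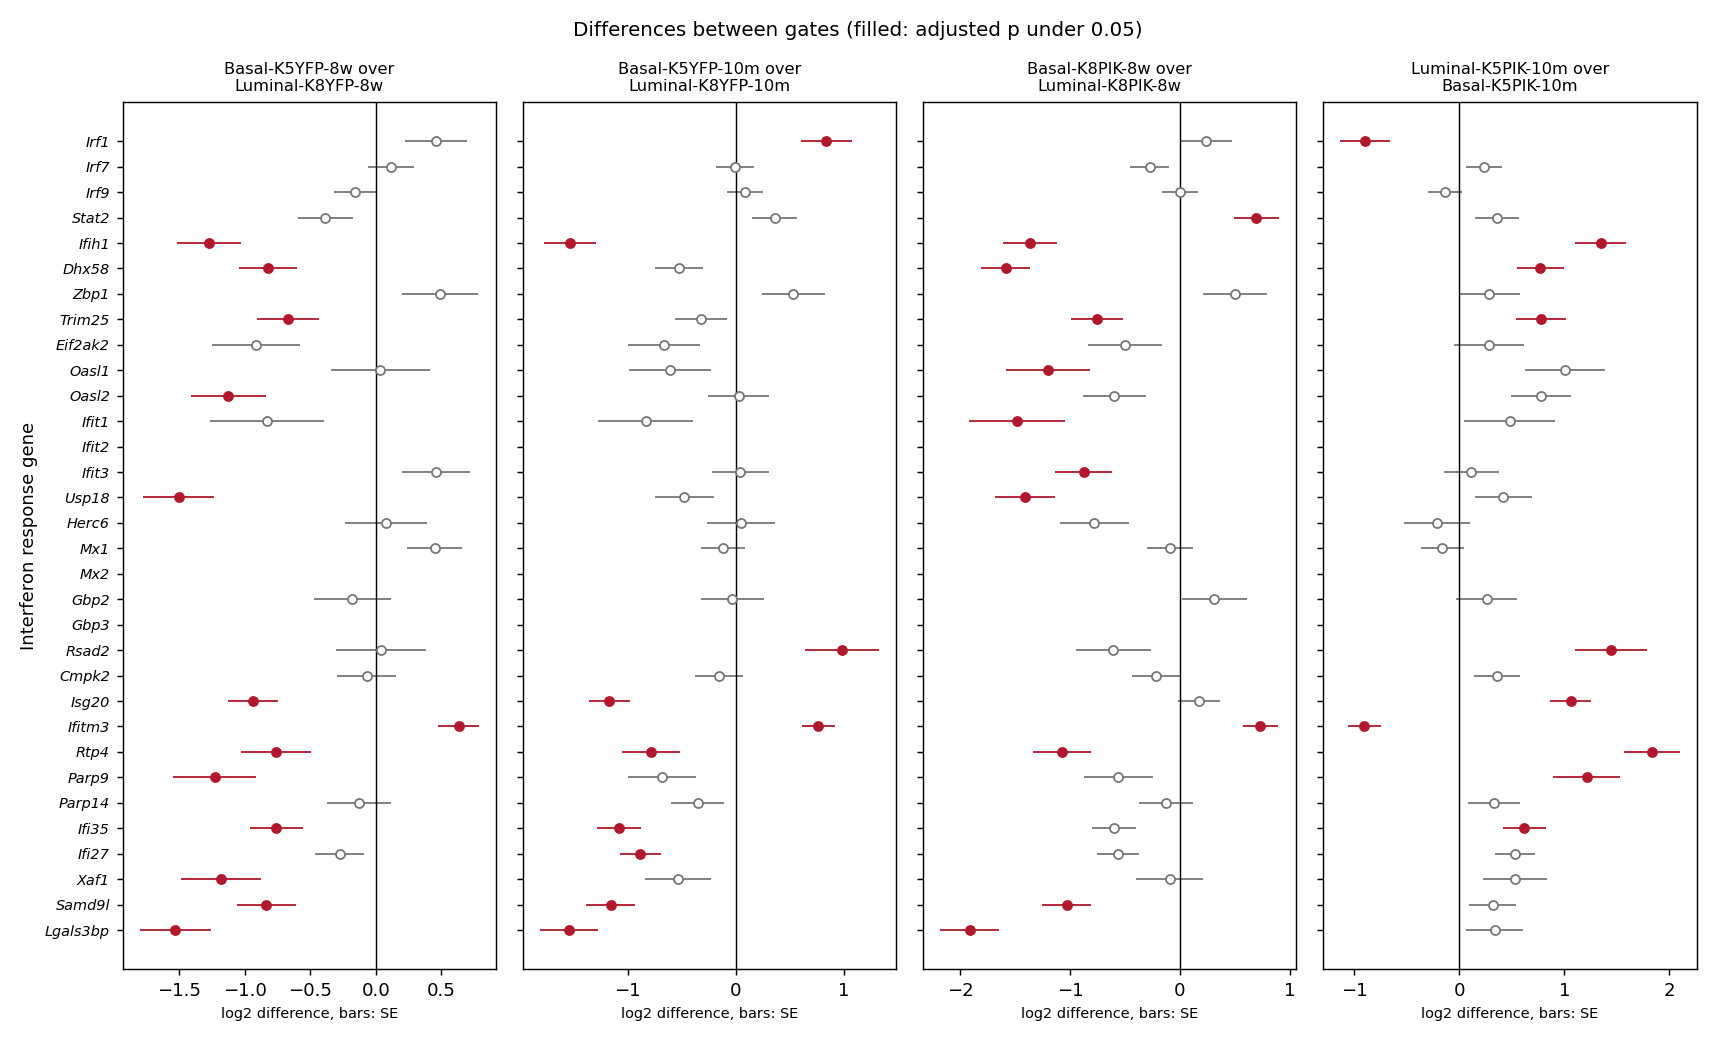
Log2 difference between gates (horizontal axis, with SE bars) for each member (rows), one panel per pair named first group over second, where filled red points passed an adjusted p of 0.05. Ifih1 and Rtp4 pass in all 4 panels with lower values in the basal gate, and Ifitm3 passes in all 4 with higher ones; the 3 members with no point were not tested.

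Endothelial markers moved with the gate in cells without the oncogene: 5 of 8 were higher in Basal-K5YFP-8w and 7 of 8 in Basal-K5YFP-10m, and their mean was 6.06 to 7.27 on those arrays against 4.81 to 5.79 on the luminal ones. In the K8PIK and K5PIK pairs 0 of 8 were called, with means of 5.83 in Basal-K8PIK-8w and 5.26 in Luminal-K8PIK-8w, and of 4.75 in Luminal-K5PIK-10m and 4.93 in Basal-K5PIK-10m. Immune markers were called higher for 2 of 11 in Basal-K5YFP-10m, Cd74 and Lyz2, and for 0 of 11 in the other pairs. The part of these markers in the differences between gates was not tested.

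Genes that receive and pass on the interferon signal, listed by role with earlier results known, were called in both directions. Of 25 tested, 8 were lower and 3 higher in Basal-K5YFP-8w than in Luminal-K8YFP-8w, beside 19.9% and 10.4% of all genes. At 10 months 5 were lower and 3 higher, beside 25.8% and 17.6%. In Basal-K8PIK-8w against Luminal-K8PIK-8w 6 were lower and 1 higher, beside 10.6% and 8.9%. In Luminal-K5PIK-10m against Basal-K5PIK-10m 2 were higher and 3 lower, beside 10.4% and 13.2%. The type III interferon receptor chain Ifnlr1 averaged 4.44 in Basal-K5YFP-8w and 6.27 in Luminal-K8YFP-8w (-1.82, SE 0.23, adjusted p = 0.000187), and it was lower in the basal gate in 3 pairs but not between the K5PIK gates (0.04, adjusted p = 0.923). Tyk2, a kinase of the type I and III receptors, was lower by 1.92, 1.02 and 1.03 in the same 3 pairs. Tlr3, the endosomal sensor of double-stranded RNA, averaged 6.39 in Luminal-K5PIK-10m and 5.26 in Basal-K5PIK-10m (1.13, adjusted p = 0.00655) and passed in all 4 pairs with lower basal values. The feedback inhibitor Socs3 went the other way, averaging 6.41 in Luminal-K5PIK-10m and 9.68 in Basal-K5PIK-10m (-3.27, SE 0.41, adjusted p = 9.2e-05). Of 6 interferon genes on the array, 2 could be tested in sorted cells and 0 passed in any pair of gates.

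A further 45 interferon-induced genes outside the list were tested in the sorted cells. Of these 14 were lower and 4 higher in Basal-K5YFP-8w than in the luminal gate, beside 19.9% and 10.4% of all genes. In Basal-K5YFP-10m 12 were lower and 5 higher, beside 25.8% and 17.6%, so the share of lower genes was near the background. In Basal-K8PIK-8w 8 were lower and 2 higher, beside 10.6% and 8.9%. In Luminal-K5PIK-10m 6 were higher and 2 lower than in Basal-K5PIK-10m, beside 10.4% and 13.2%. Oas1g, an oligoadenylate synthetase, was lower in the basal gate in all 4 pairs, by 1.20 to 1.38 log2 units.

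Age of the normal cells gave no call among the members. In Luminal-K8YFP-10m against Luminal-K8YFP-8w, limma called 0 of 29 members, beside 0.0608% of all genes. At an unadjusted p under 0.05 there were 9 members, all lower, and the median difference was -0.35 against -0.04 for all genes, with 23 of 29 below 0. Rsad2 had 6.50 and 6.68 in Luminal-K8YFP-10m against 8.37 and 8.05 in Luminal-K8YFP-8w (-1.62, SE 0.34, adjusted p = 0.114). Usp18 differed by -1.44 (adjusted p = 0.0732) and Oasl2, a synthetase-like protein, by -1.28 (adjusted p = 0.138). Usp18 was tested only through luminal arrays of 8 weeks, where it is high, and lay below the floor in Luminal-K8YFP-10m. It carries no weight here or in the count of 9. The arrays of the ages did not overlap for Rsad2, Usp18 or Oasl2, a weak mark with 2 arrays per group, and none of them passed over all genes. Without Luminal-K8YFP-8w replicate 2 the count was 1. In Basal-K5YFP-10m against Basal-K5YFP-8w, 0 of 29 members were called, beside 1.27% of all genes, with 6 at an unadjusted p under 0.05, all lower, and a median of -0.31 against -0.08. Oasl1, Ifit3 and Rtp4 had the largest differences, -0.85, -0.85 and -0.74. The difference between luminal and basal ageing was called for 0 members, beside 0.0532% of all genes, and 4 had an unadjusted p under 0.05.

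Few members were called between cells with and without the oncogene in the same gate, and at 8 weeks few genes of any kind were. At 8 weeks limma called 0 of 29 members in Luminal-K8PIK-8w against Luminal-K8YFP-8w and 0 in Basal-K8PIK-8w against Basal-K5YFP-8w, beside 0.35% and 0.418% of all genes, with 3 and 6 members at an unadjusted p under 0.05. The widest differences were Oasl1 at 0.77, Ifit3 at 0.68 and Stat2, a subunit of the complex that binds the response element, at -0.61 in the luminal gate, and Xaf1 at 1.07, Isg20 at 0.97 and Herc6 at -0.72 in the basal gate. Xaf1 is a pro-apoptotic protein and Herc6 the mouse ligase for ISG15. Basal-K8PIK-8w cells also differ from Basal-K5YFP-8w cells in Cre driver, as do Luminal-K5PIK-10m from Luminal-K8YFP-10m cells, so that oncogene and driver cannot be told apart there.

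At 10 months Rsad2 was low in basal cells with the oncogene. It had 5.76 and 5.42 in Basal-K5PIK-10m against 7.23 and 7.93 in Basal-K5YFP-10m, and 6.90 and 7.17 in Luminal-K5PIK-10m against 6.50 and 6.68 in Luminal-K8YFP-10m. The basal groups did not overlap, and Basal-K5PIK-10m held the lowest Rsad2 values of all 28 arrays. Rsad2 fell by 1.99 in Basal-K5PIK-10m (SE 0.34, adjusted p = 0.00475) and Rtp4 by 0.87 (adjusted p = 0.0431). This made 2 of 29 members lower, beside 8.02% of all genes, a share near the background. The other Rsad2 probe sets gave -0.63 and -0.55, the same direction and a smaller size, and the second Rtp4 probe set gave 0.04. The count was 1 without Basal-K5PIK-10m replicate 2 or without either Basal-K5YFP-10m array, and Rsad2 passed each time. Endothelial markers fell too in Basal-K5PIK-10m, 5 of 8, and their part in the Rsad2 difference was not tested. Rsad2 differed from its neighbour Cmpk2, which had 5.38 and 5.34 in Basal-K5PIK-10m against 5.03 and 4.97 in Basal-K5YFP-10m and did not pass.

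In Luminal-K5PIK-10m against Luminal-K8YFP-10m, 2 of 29 members were higher, beside 2.08% of all genes. Irf7, the factor that amplifies type I interferon production, had 6.30 and 6.56 in Luminal-K5PIK-10m against 5.71 and 5.73 in Luminal-K8YFP-10m (0.71, SE 0.18, adjusted p = 0.0332), and Dhx58 was higher by 0.84 (adjusted p = 0.045). Neither passed with any of the 4 arrays left out, where the count was 0 or 1. Zbp1, at 7.04 and 7.00 in Luminal-K5PIK-10m against 5.85 and 6.08 in Luminal-K8YFP-10m, missed the threshold (1.05, adjusted p = 0.0504). The difference between the basal and the luminal comparison at 10 months was called for 1 member, Rsad2 (-2.43, adjusted p = 0.017), beside 7.15% of all genes. That call was lost without Basal-K5PIK-10m replicate 2 (adjusted p = 0.0643) or without Luminal-K8YFP-10m replicate 1 (0.0606) or replicate 2 (0.0731). At 8 weeks the same interaction was called for 0 members, beside 0.0076% of all genes, with 6 at an unadjusted p under 0.05.

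**Figure D4:**
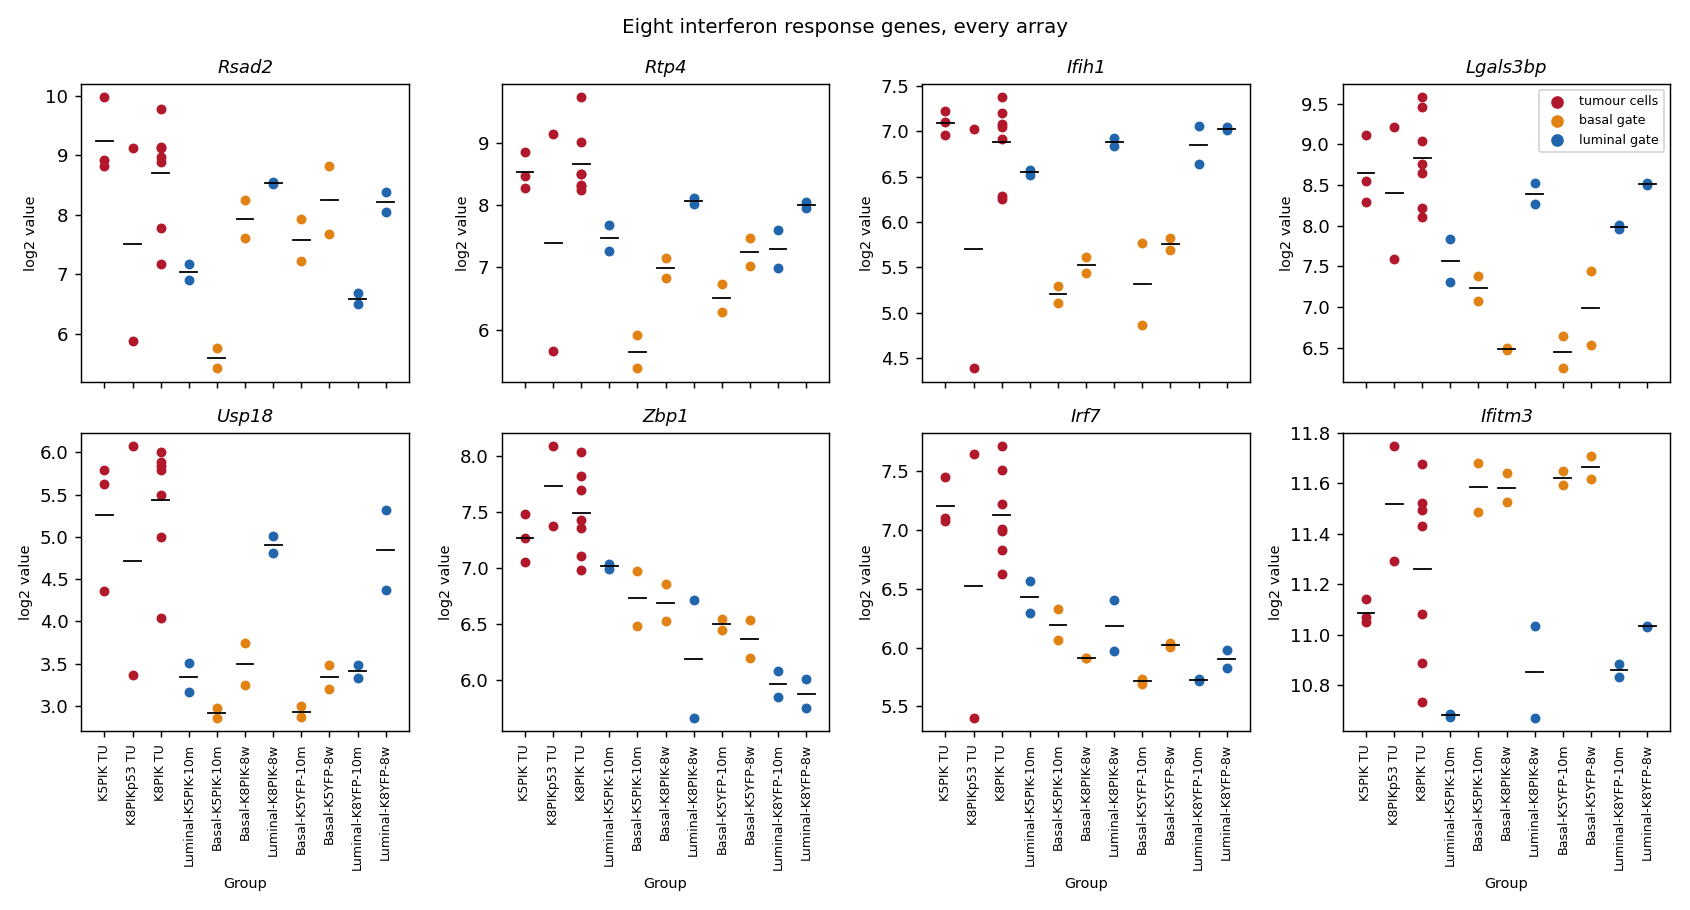
Log2 value (vertical axes) of 8 members on every array by group (horizontal axes), where points are arrays, black bars group means and colours tumour cells, basal gate or luminal gate. Rsad2 is lowest in Basal-K5PIK-10m, Zbp1 and Irf7 have their highest group mean in a tumour group although the first K8PIKp53 TU array is the lowest of all for Irf7, and Ifitm3 is high in every basal-gate group.

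K8 tumours expressed 8 members more than normal luminal cells, taken as the mean of Luminal-K8YFP-10m and Luminal-K8YFP-8w. These were 8 of 32 higher and 0 lower, beside 4.47% and 6.13% of all genes, and the median difference was 0.42 against 0.00 for all genes. Zbp1 ranged over 6.98, 7.43 and 8.04 (lowest, median, highest) in K8PIK TU, against 5.85 and 6.08 in Luminal-K8YFP-10m and 5.75 and 6.01 in Luminal-K8YFP-8w. No arrays overlapped, and the difference of 1.57 (SE 0.21, adjusted p = 0.000192) passed under every alternative run. A second Zbp1 probe set gave 0.41. Irf7 had 6.62, 7.00 and 7.71 in K8PIK TU, against 5.71 to 5.98 on the 4 luminal arrays (1.31, SE 0.27, adjusted p = 0.00515). Ifit3 (1.49), Usp18 (1.31), Irf1 (0.85) and Herc6 (0.84) passed at adjusted p between 0.0149 and 0.049, and the arrays overlapped for Usp18 and Irf1. Gbp3, a GTPase of the guanylate-binding family, and Mx2, a dynamin-like GTPase, passed too, but lay below the floor on all 4 normal luminal arrays and above it on 4 and 3 of the 12 tumour arrays. They were tested only because of those tumour arrays, so their calls carry no weight in the count, and 6 calls remain without them.

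The count for K8 tumours was sensitive to the normal cells used. It was 2 without Luminal-K8YFP-8w replicate 1, 3 without its replicate 2, 2 without either Luminal-K8YFP-10m array, and 4 without K8PIK TU replicate 2 or 7. Against Luminal-K8YFP-8w alone it was 1, and against Luminal-K8YFP-10m alone it was 5. Markers of other cells moved with these genes: 5 of 7 basal and 2 of 5 fibroblast markers were higher in K8PIK TU than in normal luminal cells, and their part in the result was not tested.

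K5 tumours expressed nearly as many members at a higher level than normal basal cells as not. Against the mean of Basal-K5YFP-10m and Basal-K5YFP-8w, 15 of 32 members were higher in K5PIK TU and 1, Ifitm3, was lower, beside 15.5% and 14.5% of all genes. The median difference was 0.65 against 0.04 for all genes. Lgals3bp had 8.54, 8.29 and 9.11 in K5PIK TU, against 6.24 and 6.64 in Basal-K5YFP-10m and 6.53 and 7.44 in Basal-K5YFP-8w (1.94, SE 0.36, adjusted p = 0.000564). Usp18 had 4.36, 5.79 and 5.63 in K5PIK TU, against 2.87 to 3.48 on the 4 basal arrays, all of these below the floor (2.13, SE 0.50, adjusted p = 0.00332). Irf7 had 7.44, 7.07 and 7.10 in K5PIK TU against 5.69 to 6.04 (1.34, SE 0.33, adjusted p = 0.00474). For all 3 genes the tumours lay above every basal array.

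Of the 5 sensing members 4 were higher in K5PIK TU, and Trim25 was not called (0.04). Ifih1 was higher by 1.56, Dhx58 by 1.51, Zbp1 by 0.84 and Eif2ak2 by 0.79. Rtp4 (1.66), Xaf1 (1.62), Oasl2 (1.55), Parp9 (1.11), Ifi35 (0.99), Ifi27 (0.88), Isg20 (0.79) and Mx1 (0.46) were higher as well, at adjusted p between 0.000501 and 0.0482. Mx1 was near the floor, above it on 1 of the 4 normal basal arrays, and its call was lost in 7 of 15 alternatives. Second probe sets gave smaller values for Rtp4 (0.47), Xaf1 (0.32) and Zbp1 (0.14) and a larger one for Ifi27 (1.08). The other Dhx58 probe sets gave 1.20 and 0.06, the latter from the one below the floor on all arrays. Ifitm3 had 11.07, 11.05 and 11.14 in K5PIK TU against 11.59 to 11.71 on the 4 basal arrays and fell by 0.56 (adjusted p = 0.0282). Luminal markers moved with these genes: 7 of 8 were higher and 4 of 7 basal markers lower in K5PIK TU than in normal basal cells, and their part in the result was not tested. Against Basal-K5YFP-8w alone 4 members were called. Irf7, Usp18 and Zbp1 passed in both tumour comparisons, and the share of all genes that did so was not worked out.

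Of 13 immune markers tested in the tumour comparisons, 0 passed in either. The pan-leukocyte marker Ptprc ran from 3.10 to 4.26 in K5PIK TU and from 2.68 to 4.70 in K8PIK TU, around the floor. The immune marker mean ranged from 4.54 to 6.12 over the K8PIK TU arrays, and its part in the members' values was not tested.

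**Figure D5:**
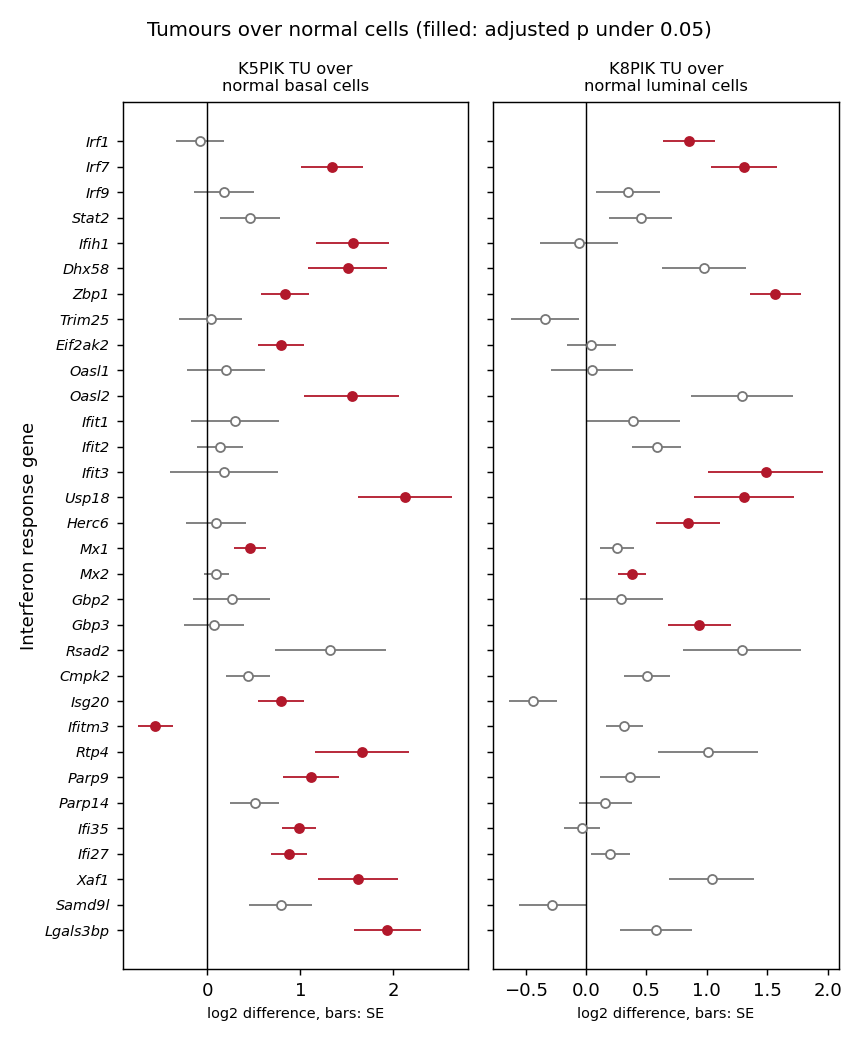
Log2 difference of K5PIK TU over normal basal cells (left) and K8PIK TU over normal luminal cells (right) for each member (rows), with SE bars on the horizontal axis and filled red points where the adjusted p was under 0.05. In the left panel 15 members pass above 0 and Ifitm3 below it, and in the right panel 8 pass above 0.

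Of the signalling genes, 6 of 27 were higher and 3 lower in K5PIK TU, beside 15.5% and 14.5% of all genes. In K8PIK TU 1 was higher and 1 lower, beside 4.47% and 6.13%. Tlr3 averaged 6.90 in K5PIK TU and 5.38 in normal basal cells (1.52, adjusted p = 0.000213), and Socs3 averaged 7.92 in K8PIK TU and 6.57 in normal luminal cells (1.35, adjusted p = 0.00974). Of the further interferon-induced genes, 16 of 46 were higher and 2 lower in K5PIK TU, beside the same 15.5% and 14.5% of all genes. In K8PIK TU 8 were higher, beside 4.47%. Oas2, another synthetase, was higher by 0.91 in K8PIK TU (adjusted p = 0.0132).

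Tumours of different cell of origin or p53 status gave no call among the members. In K5PIK TU against K8PIK TU limma called 0 of 32 members, beside 0% of 13244 genes, with 0 members and 1225 genes at an unadjusted p under 0.05. Ifit3 and Ifit1 differed most, by -1.06 (SE 0.67) and -0.93 (SE 0.47). In K8PIKp53 TU against K8PIK TU 0 members were called, beside 0.325% of all genes, with 5 at an unadjusted p under 0.05, all lower. Irf9, the DNA-binding subunit of the complex with STAT2, differed by -1.40 (SE 0.44, adjusted p = 0.136), Rtp4 by -1.26 and Rsad2 by -1.19.

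The K8PIKp53 TU arrays stood far apart in these genes and not in most others. Ifit3 had 4.89 and 8.79, Oasl2 4.59 and 8.19, Rtp4 5.66 and 9.14 and Rsad2 5.88 and 9.12 on replicates 1 and 2. Replicate 2 was higher for 32 of 32 members, with a median difference of 1.46, and for 20 of them (62.5%) by over 1 log2 unit. Over all genes the median difference was -0.01 and 7.3% differed by over 1 in either direction. The members' median SD was 1.04 in K8PIKp53 TU and 0.45 in K8PIK TU. Set against K8PIK TU, the members' median was 0.41 without replicate 1, with 0 called, and -1.17 without replicate 2, with 5 called lower. The mean of luminal markers was 7.50 and 8.36 on the pair and that of immune markers 5.26 and 5.24, and their part in the difference was not tested.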

How the data were processed

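Total RNA of 28 sorted samples was hybridised to Affymetrix arrays, per the labels. The authors deposited log2 values for 45141 probe sets per array. The submitters' processing notes name R 2.14.0, and the background correction and normalization are not given in the sources used here. Array medians were 4.40 to 4.50, so values were used without further scaling. The number of arrays limits the precision. The platform annotation gave 1 symbol to 28898 probe sets. The 551 with several symbols and the 15692 not listed were left out, and the probe set with the highest mean stood for each of 17097 genes.

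Using limma 3.58.1 (R 4.3.3), models with a mean for each group were fitted to the 16 sorted arrays (13150 genes), the 12 tumour arrays (13244 genes) or all 28 (13663 genes), with Benjamini-Hochberg adjustment over all genes tested and calls at adjusted p under 0.05. Genes above the array's 40th percentile on 2 or more of the fitted arrays were tested. The fits were tested on simulated data. The members, the lists of signalling, interferon-induced and marker genes and the comparisons were chosen with earlier results of these data known; the gate-by-genotype interactions were added after the values were seen. Named genes were drawn from the members called, up to 8 per direction by size, or the 3 largest where none was called. Not all such members were described. Between gates, Ifi27, Ifi35, Oasl1, Oasl2, Parp9, Samd9l and Xaf1 were lower in the basal gate in at least 1 pair by the test without being described. Genes named outside this rule, after their values were seen, were Cmpk2, members described across all pairs of gates, those with the largest K8PIKp53 TU difference and examples from the other lists. Alternatives were other arrays in the fit, no filter, the mean of probe sets, a trended and robust prior, quantile normalization, a replicate block, each array left out and 1 age of normal cells. One item is not reported here.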

Additional observations from a re-analysis of the deposited data

Results flagged for a closer look

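For Rsad2 the difference of Basal-K5PIK-10m from Basal-K5YFP-10m was unlike that of Luminal-K5PIK-10m from Luminal-K8YFP-10m, where oncogene and Cre driver cannot be told apart. The interaction was -2.43 on the log2 scale (limma, adjusted p = 0.017), with Rsad2 lower in 2 of 2 Basal-K5PIK-10m arrays than in both Basal-K5YFP-10m arrays and higher in 2 of 2 Luminal-K5PIK-10m arrays than in both Luminal-K8YFP-10m arrays. The other Rsad2 probe sets gave -0.95 and -0.58. The call was lost in 5 of 14 alternatives: with all 28 arrays in the fit (adjusted p = 0.247), with the mean of probe sets (0.0674) and without any 1 of 3 arrays, Basal-K5PIK-10m replicate 2 or either Luminal-K8YFP-10m replicate (0.0606 to 0.0731). In K8PIK TU, 33 sets of 7 values were examined for a single array far from the rest and 0 were found, where chance gives about 1 in 20.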

How the results depend on the processing

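Of 213 recomputed counts of members called, 163 stayed within 1.5 times the reported one, and none of 896 recomputed differences of called members changed sign, though 248 lost their call. Of 74 calls, 16 held under every alternative. With all 28 arrays in the fit, the count was 4 for Basal-K5YFP-8w over Luminal-K8YFP-8w, 6 for the 10-month pair, 1 for the K8PIK gates, 3 for the K5PIK gates, 3 for K8PIKp53 TU over K8PIK TU, and 0 for Basal-K5PIK-10m over Basal-K5YFP-10m, Luminal-K5PIK-10m over Luminal-K8YFP-10m and the 10-month interaction. With the mean of probe sets it was 1 for Basal-K8PIK-8w over Basal-K5YFP-8w, 1 for Basal-K5PIK-10m, 1 for K8PIKp53 TU and 0 for the interaction. The trended prior gave 1 for luminal ageing, 1 for Basal-K8PIK-8w over Basal-K5YFP-8w and 1 for Luminal-K5PIK-10m. Without the filter it was 1 for Basal-K5PIK-10m and 5 for K8PIK TU over normal cells. Quantile normalization gave 4 for Luminal-K5PIK-10m, 4 for K8PIK TU and 2 for the interaction, and moved the median of all genes in that interaction to -0.02, against 0.12. Normal cells of 8 weeks alone gave 1 for K8PIK TU and 4 for K5PIK TU, and those of 10 months alone gave 5 for K8PIK TU. The cause of these changes was not tested.

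Equal replicate numbers are not stated to pair the samples, and the deviations of same-numbered arrays correlated between -0.09 and 0.38. With the replicate block the count was 4 for Luminal-K5PIK-10m over Luminal-K8YFP-10m and 1 for Basal-K8PIK-8w over Basal-K5YFP-8w, and all other counts stayed within 1.5 times the reported ones. Leaving out single arrays gave 0 to 1 for luminal ageing, 5 to 11 for the 8-week pair, 8 to 9 for the 10-month pair, 5 to 9 for the K8PIK gates and 4 to 10 for the K5PIK gates. It gave 1 to 3 for Basal-K5PIK-10m, 0 to 1 for Luminal-K5PIK-10m, 0 to 3 for the interaction, 0 to 5 for K8PIKp53 TU, 2 to 9 for K8PIK TU and 11 to 13 for K5PIK TU. A lone array was then assumed to vary like the other groups.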

Other observations

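Members that lie next to each other with no coding gene between them were set side by side. The range of group means was 3.65 for Rsad2 and 0.77 for its neighbour Cmpk2. It was 2.17 for Oasl2 and 2.18 for its neighbour Oasl1, and 0.77 for Ifit2 and 1.90 for its neighbour Ifit3, where Ifit2 was above the floor on 2 arrays. These are descriptions of 1 probe set per gene.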
